A study of Homo sapiens with 16 samples.

Results

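The 789 regions described here are places more than 50 kb from any protein-coding gene at which the clock factor BMAL1 was called repeatedly, but not always, in the osteosarcoma line U2OS and the line labelled U2OS-CHR. They were chosen by measured values. Peaks of the 12 BMAL1 lists that shared at least 1 bp were merged into 20968 regions, and regions were kept that had a peak in 2 to 9 lists, with at least 1 list from each line. Of all merged regions, 4755 (22.7%) met this rule on calls and 4125 (19.7%) lay over 50 kb from a protein-coding gene body. The 789 met both, and are called far regions below. The 3964 regions that met the same rule on calls but lay within 50 kb of a gene, or in one, are called near regions. Another 2 lay on sequences with no protein-coding gene.

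The series measured chromatin binding by immunoprecipitation and sequencing (ChIP-seq) in U2OS, a human osteosarcoma cell line long used for clock studies. Its samples are labelled WT, and those of the other line U2OS-CHR. The labels do not spell out CHR, and the series title names CHRONO, a repressor of the clock. BMAL1 was precipitated from both lines at 6 times, 4 h apart and labelled 0 to 20 h, after 200 nM dexamethasone, a glucocorticoid that sets the phase of clocks in culture. Every group of line and time held 1 library, so times stand in for replicates, and p-values measure the spread between times. Per the labels, collection was timed to the low point of a luciferase reporter of the BMAL1 promoter and began 4 h ahead of it, so the times are not hours since treatment. A further library from U2OS-CHR was precipitated with an antibody labelled Myc, with no time or treatment label, and the labels do not say whether this means the Myc protein or an epitope tag. Whether U2OS-CHR is 1 clone is not stated. Peak lists hold no expression and cannot check the cell type.

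BMAL1 pairs with CLOCK or its relative NPAS2, and the pair binds short E-box sequences such as CACGTG. It drives the PER and CRY genes, whose products return to block it, so that its binding rises and falls over the day. Much binding of such factors lies in enhancers, which act on genes from a distance and are often shared with other factors, among them AP-1, a pair of JUN and FOS family proteins that binds TGAGTCA.

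Promoter windows were the only sequence at hand for these regions, and 19 far regions met 21 of them, all windows of long non-coding RNAs (lncRNAs). None was of a protein-coding gene, which the 50 kb rule fixed in advance. A window runs from 250 bases before to 50 after a start in RefSeq (GRCh38.p14). The windows below are shown for a stated reason each. The first 4 are those in 7 or more BMAL1 lists, the first of them beside NPAS2. LOC105371259 has the only CACGTG, and MIR4458HG lies in the 1 region among them with a Myc peak. LOC124903147, LINC02542 and LUCAT1 were picked as further windows with TGAGTCA, so the sequences printed hold it in 5 of 9 cases against 8 of all 21. Each is on its gene's strand, 5′ to 3′, with any CACGTG in capitals, and likewise any TGAGTCA or its reverse complement.
LOC105375310, chr2:100733809-100734108, minus strand: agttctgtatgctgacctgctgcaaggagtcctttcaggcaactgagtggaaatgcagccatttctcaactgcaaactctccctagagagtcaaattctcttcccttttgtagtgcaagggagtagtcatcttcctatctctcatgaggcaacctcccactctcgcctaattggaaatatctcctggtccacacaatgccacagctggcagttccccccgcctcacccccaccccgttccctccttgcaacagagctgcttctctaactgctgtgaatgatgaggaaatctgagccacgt
LOC105379013, chr5:68434380-68434679, minus strand: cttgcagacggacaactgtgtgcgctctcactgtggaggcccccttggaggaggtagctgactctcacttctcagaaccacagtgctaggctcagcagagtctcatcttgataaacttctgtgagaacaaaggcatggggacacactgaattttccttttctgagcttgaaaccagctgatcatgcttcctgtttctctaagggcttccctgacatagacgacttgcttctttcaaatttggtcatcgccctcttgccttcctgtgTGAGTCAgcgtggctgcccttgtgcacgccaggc
LOC105378998, chr5:61917296-61917595, minus strand: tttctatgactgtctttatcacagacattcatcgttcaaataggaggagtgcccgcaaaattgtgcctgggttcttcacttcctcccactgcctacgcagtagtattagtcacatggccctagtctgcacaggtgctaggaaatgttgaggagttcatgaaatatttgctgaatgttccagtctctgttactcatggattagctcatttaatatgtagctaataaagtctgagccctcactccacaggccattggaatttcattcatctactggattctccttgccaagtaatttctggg
LINC00111, chr21:41679052-41679351, plus strand: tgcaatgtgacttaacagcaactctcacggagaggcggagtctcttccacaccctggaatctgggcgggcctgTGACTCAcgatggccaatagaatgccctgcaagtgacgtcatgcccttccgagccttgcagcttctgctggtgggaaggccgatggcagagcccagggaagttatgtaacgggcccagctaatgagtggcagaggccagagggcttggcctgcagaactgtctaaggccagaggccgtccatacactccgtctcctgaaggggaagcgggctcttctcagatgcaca
LOC124903147, chr13:31045852-31046151, plus strand: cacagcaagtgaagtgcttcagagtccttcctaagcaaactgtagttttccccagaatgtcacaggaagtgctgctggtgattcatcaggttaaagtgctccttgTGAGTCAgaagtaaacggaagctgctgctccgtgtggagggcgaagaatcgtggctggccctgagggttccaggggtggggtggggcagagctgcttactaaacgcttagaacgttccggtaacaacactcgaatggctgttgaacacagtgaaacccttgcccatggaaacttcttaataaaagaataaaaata
LINC02542, chr6:81938372-81938671, minus strand: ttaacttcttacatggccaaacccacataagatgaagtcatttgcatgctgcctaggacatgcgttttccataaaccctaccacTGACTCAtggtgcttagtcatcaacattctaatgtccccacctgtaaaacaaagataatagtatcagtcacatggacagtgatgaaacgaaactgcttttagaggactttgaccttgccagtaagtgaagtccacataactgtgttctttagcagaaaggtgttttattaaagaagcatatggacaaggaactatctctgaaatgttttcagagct
LOC105371259, chr16:51994549-51994848, minus strand: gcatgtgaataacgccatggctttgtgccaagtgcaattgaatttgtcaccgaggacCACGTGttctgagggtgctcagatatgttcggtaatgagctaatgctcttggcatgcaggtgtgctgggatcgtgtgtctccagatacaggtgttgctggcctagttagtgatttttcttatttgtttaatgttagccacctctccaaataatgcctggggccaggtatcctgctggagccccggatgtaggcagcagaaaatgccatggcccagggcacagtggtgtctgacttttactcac
LUCAT1, chr5:91314353-91314652, minus strand: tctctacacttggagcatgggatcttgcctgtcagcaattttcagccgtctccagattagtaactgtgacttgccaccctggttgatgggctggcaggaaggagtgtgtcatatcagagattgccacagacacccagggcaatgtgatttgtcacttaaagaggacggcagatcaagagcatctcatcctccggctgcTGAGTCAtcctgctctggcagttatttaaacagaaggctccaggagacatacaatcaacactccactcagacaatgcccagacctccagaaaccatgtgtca
MIR4458HG, chr5:8457437-8457736, plus strand: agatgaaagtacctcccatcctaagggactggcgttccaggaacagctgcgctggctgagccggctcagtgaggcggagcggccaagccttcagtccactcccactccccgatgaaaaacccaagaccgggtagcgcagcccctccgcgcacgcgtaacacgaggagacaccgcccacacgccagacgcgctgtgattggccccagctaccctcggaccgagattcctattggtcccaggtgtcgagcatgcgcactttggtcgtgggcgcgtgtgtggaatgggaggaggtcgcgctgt

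The AP-1 sequence TGAGTCA, on either strand, was present in 8 of the 21 windows (38.1%, Wilson 95% interval 20.8 to 59.1%), and all 8 copies lay inside the BMAL1 region itself. The E-box CACGTG, which reads the same on both strands, was in 1 of 21 (4.76%, 0.846 to 22.7%), the window of LOC105371259. Over all 12917 lncRNA windows TGAGTCA was in 6.56% and CACGTG in 5.40%. Over the 4083 lncRNA windows more than 50 kb from a protein-coding gene the shares were 7.25% and 3.77%. Over all 35116 windows of any gene type CACGTG was in 7.26% and TGAGTCA in 4.95%. So TGAGTCA was the more frequent sequence in the far windows and the E-box was not.

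Windows met by near regions held the opposite order, with CACGTG in 28.2% (23.1 to 34.0%) and TGAGTCA in 10.8% (7.59 to 15.2%) of 259. Windows met by near regions lying 1 to 50 kb from a gene held CACGTG in 31.4% and TGAGTCA in 21.6% (12.5 to 34.6%) of 51, an interval that overlaps the far one. Windows met by other BMAL1 regions over 50 kb away, outside the rule on calls, held CACGTG in 12.7% and TGAGTCA in 15.9% (8.86 to 26.8%) of 63. The sequences CACGTT, an E-box variant, and ACANNNTGT, the core of a glucocorticoid receptor element, were each in 0 of the 21 far windows, with an upper bound of 15.5%. Their shares over all lncRNA windows were 5.19% and 7.76%. The search for TGAGTCA and for these last sequences, and the 3 sets of windows defined by a distance of 50 kb, were added after the peaks had been seen, the windows cover 19 of 789 regions, and no test was made.

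**Figure D1:**
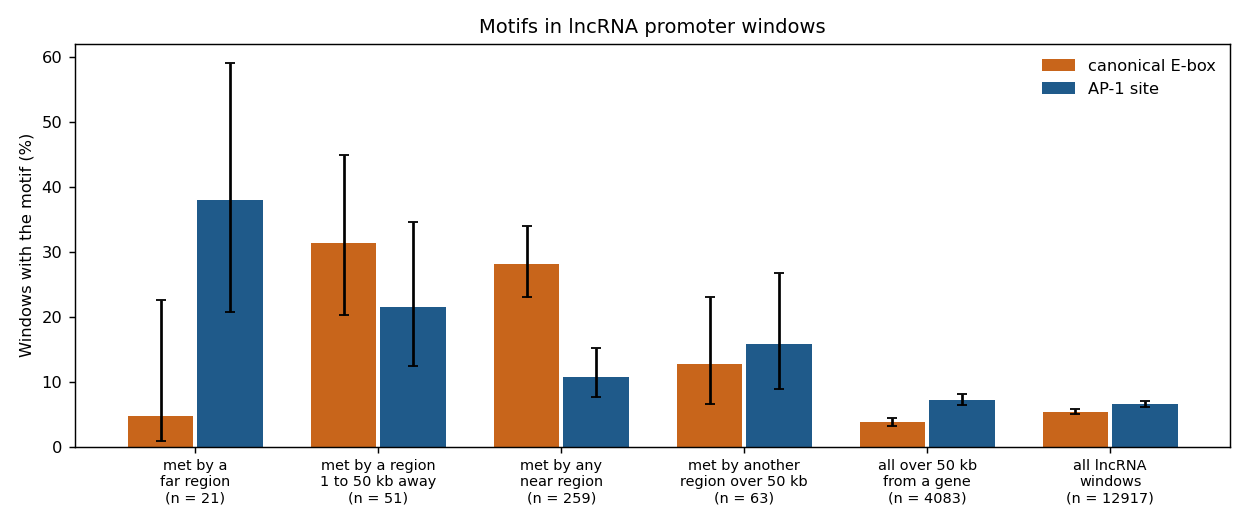
Share of 300-base lncRNA promoter windows (y axis, percent) that held the canonical E-box (orange) or the AP-1 site (blue), in 6 sets of windows (x axis), with Wilson 95% intervals. The AP-1 site was in 38.1% of the windows met by far regions and the E-box in 28.2% of those met by near regions.

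Single windows show how the sequences and calls sat together. The region of LOC105379013 (chr5:68433904-68434641), 132 kb from PIK3R1, the regulatory subunit of PI3-kinase, was called at 3 U2OS and all 6 U2OS-CHR times. Its window holds 1 AP-1 site. LINC00111 lies in a region 60.1 kb from RIPK4 with 3 U2OS and 4 U2OS-CHR times. LUCAT1, a stress-induced lncRNA, had a peak at 0 h in each line and at no other time, and LOC105371259, with the E-box, had 1 U2OS time and 2 U2OS-CHR times. Windows with TGAGTCA thus ranged from 2 to 9 lists.

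Calls in both lines defined the far regions, so their numbers of lists are a description. The number of regions fell steadily from 135 with 2 lists and 125 with 3 to 66 with 8 and 59 with 9, around a median of 5. In U2OS 372 of the 789 were called at 1 time (47.1%, beside 47.6% of all regions with the same rule on calls) and 0 at all 6 (beside 0.0421%). In U2OS-CHR 74 were called at all 6 (9.38%, beside 9.59%). These shares are at the background. Among the 372, the single U2OS time was 20 h for 173 (46.5%), 4 h for 143 (38.4%), 0 h for 39 (10.5%), 16 h for 11 (2.96%) and 12 h for 6 (1.61%). Over all regions with the same rule it was 43.8, 36.4, 12.0, 5.83 and 1.94%, in the same order. Far regions were called at more U2OS-CHR than U2OS times in 466 cases (59.1%), beside 61.1% of all regions with the same rule on calls. They were called at more U2OS times in 117 (14.8%, beside 13.4%). Shares this near the background are no result about the far regions. In 575 (72.9%), both lines had a peak at the same time at least once, beside 74.6% of near regions.

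Calls of the far regions followed the library they came from. In U2OS 278 of 789 were called at 0 h (35.2%), 488 at 4 h (61.9%), 2 at 8 h (0.253%), 77 at 12 h (9.76%), 122 at 16 h (15.5%) and 517 at 20 h (65.5%). The background over all regions with the same rule on calls was 35.2, 60.7, 0.358, 8.81, 22 and 62.7%. In U2OS-CHR 347 were called at 0 h (44.0%), 539 at 4 h (68.3%), 137 at 8 h (17.4%), 284 at 12 h (36.0%), 590 at 16 h (74.8%) and 489 at 20 h (62.0%), on a background of 51.9, 70.5, 16.5, 32.1, 76.4 and 61.3%. Both lines were lowest at 8 h, and the lines were closest at 4 and 20 h. The widest gaps to near regions were at 0 h in U2OS-CHR, with 44.0% of far and 53.5% of near regions, and at 16 h in U2OS, with 15.5% and 23.3%. Lists ran from 337 peaks in U2OS at 8 h to 9391 in U2OS-CHR at 16 h. Read depth is unknown, and the part of list length in these shares was not tested.

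**Figure D2:**
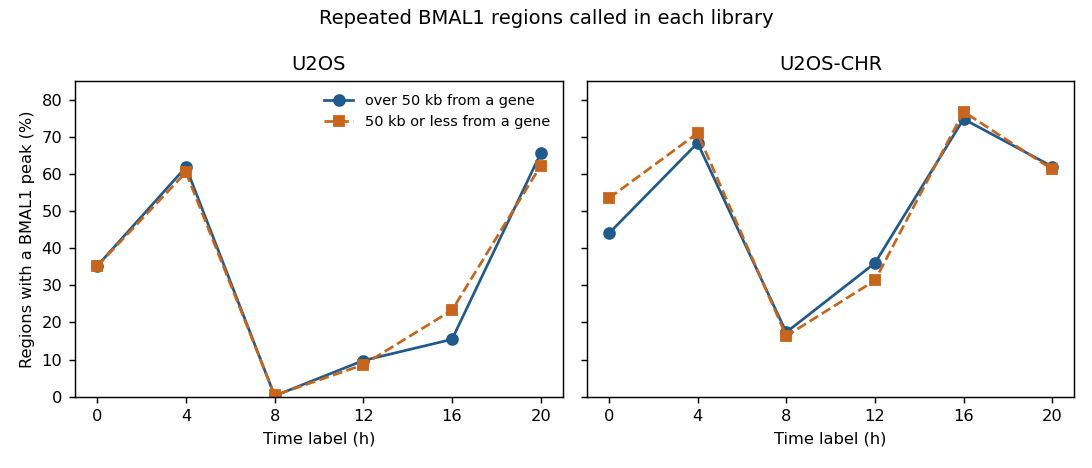
Share of far (blue circles) and near (orange squares) regions with a BMAL1 peak (y axis, percent) at each labelled time (x axis, hours), in U2OS (left) and U2OS-CHR (right), with 1 library per point. Both sets fell to their lowest share at 8 h in each line, 0.253% of far regions in U2OS and 17.4% in U2OS-CHR.

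The difference between the lines in far regions did not stand apart from that in near regions beyond the spread between times. The log2 ratio of regions called in U2OS-CHR over U2OS was 0.32, 0.14, 5.78, 1.88, 2.27 and −0.08 from 0 to 20 h for far regions, and 0.60, 0.23, 5.39, 1.86, 1.72 and −0.02 for near regions. U2OS-CHR was ahead at the first 5 times and level at 20 h, and the ratio at 8 h rests on 2 U2OS calls. Far minus near averaged 0.089 ± 0.32 (SD, n = 6 times), higher in 3 of 6 (two-sided exact permutation p = 0.531, adjusted p = 0.625 over 6 tests). The likeness of calls in the lines at matched times differed from that at unmatched times by 0.0037. The mean phi coefficient between the lines was 0.068 at matched and 0.065 at unmatched times (one-sided exact permutation p = 0.44, adjusted p = 0.625). These p-values miss the threshold and do not show that far and near regions act alike.

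Strength was compared by the rank of a peak's deposited score within its own list. In U2OS the median far peak stood at percentile 46.3, 47.5, 45.3, 48.1, 49.2 and 53.9 from 0 to 20 h, and the median near peak at 47.0, 50.7, 39.8, 48.1, 48.1 and 52.9. In U2OS-CHR far medians were 55.1, 58.5, 50.2, 54.1, 59.7 and 59.6, and near medians 56.4, 61.0, 50.7, 53.4, 62.8 and 57.9. Far medians therefore stood mid-list in every library, as near medians did, but that of U2OS at 8 h rests on 2 far peaks. Far minus near was 5.49 points there and between −3.26 and 1.11 points at the other U2OS times. Far minus near averaged 0.60 ± 2.88 points in U2OS (SD, n = 6 times; two-sided exact permutation p = 0.625, adjusted p = 0.625). It averaged −0.81 ± 1.85 points in U2OS-CHR (SD, n = 6 times; two-sided exact permutation p = 0.344, adjusted p = 0.625). Leaving out any 1 time, with the rule applied afresh to 10 lists, turned the U2OS difference to between −7.09 and −1.84 points. The far median was then below the near one at all 5 times left (exact permutation p = 0.0625, the smallest possible), except without 16 h, where it was above at 1 of 5 times (exact permutation p = 0.125). No adjusted p was under 0.1875. The highest far peak of a list ranked between 80 and 363 from the top in U2OS and between 85 and 290 in U2OS-CHR. The rule leaves out regions in 10 to 12 lists, so no trait of far regions is read from these ranks. The highest percentile of a region was over 95 in 2.03% of far and 2.67% of near regions. It was over 90 in 10.3% and 11.7%.

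The median far peak in U2OS was wider than the median near peak at all 6 times, by little at 5 of them. Median far widths were 317, 336, 2846.5, 207, 348 and 395 bp from 0 to 20 h, against 310, 331, 711, 201, 335 and 378 bp. The 8 h value rests on 2 far peaks. The log2 difference averaged 0.30 ± 0.64 (SD, n = 6 times). Its exact permutation p was 0.03125, the smallest that 6 times allow, and it did not pass after adjustment (adjusted p = 0.1875). Without 8 h, with the rule applied afresh, the difference was 0.021 on the log2 scale (exact permutation p = 0.0625, the smallest possible over 5 times). Leaving out any other time also lowered it, to between 0.057 and 0.078, with far wider at 3 to 5 of 5 times. In U2OS-CHR it was 0.0092 ± 0.031, higher at 3 of 6 times (exact permutation p = 0.469, adjusted p = 0.625).

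**Figure D3:**
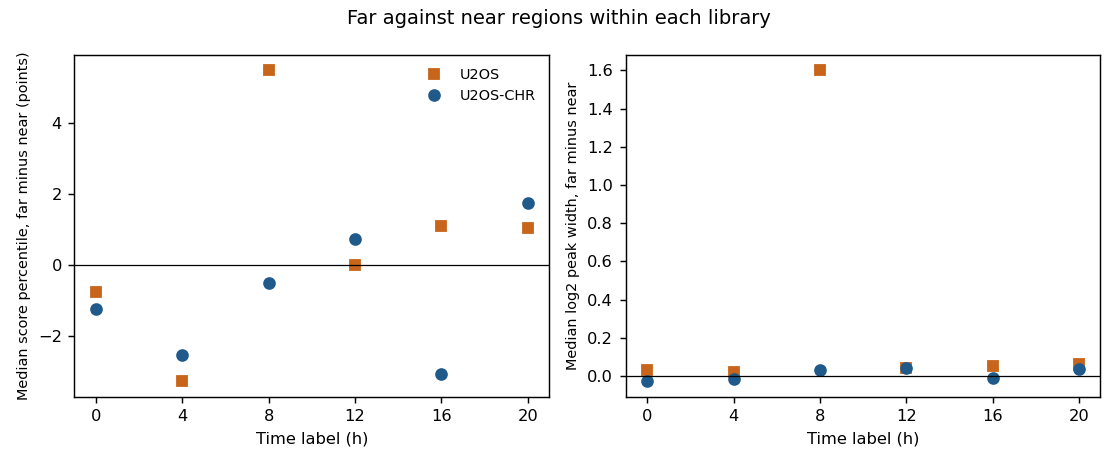
Far minus near difference in each library by labelled time (x axis, hours): median score percentile (left, points) and median log2 peak width (right), for U2OS (orange squares) and U2OS-CHR (blue circles). U2OS at 8 h, with 2 far peaks, stands apart on the right at 1.60, and the other widths lie close to 0.

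Far regions were set at distances from 50.04 to 2289 kb from the nearest protein-coding gene, with a median of 129 kb. There were 305 at 50 to 100 kb, 227 at 100 to 200 kb, 193 at 200 to 500 kb and 64 beyond 500 kb. The median number of lists was 5, 4, 5 and 5 in these 4 ranges, with no steady trend with distance. Just inside the threshold lay regions 50.04 kb from MDGA1, 50.22 kb from KDR and 50.23 kb from COL24A1. Just outside lay regions 49.93 kb from BCAS1, 49.93 kb from FAM169A and 49.91 kb from ANAPC13. The share of regions over 50 kb was 22.8% (22 to 23.5%) among those in 1 list and 12.1% (10.1 to 14.3%) among those in 10 to 12 lists. Among those in 2 to 9 lists it was 16.6% (15.6 to 17.7%) with both lines and 15.4% (14.2 to 16.6%) with 1 line. With both lines it did not fall steadily, at 16.9% in 2 lists, 17.6% in 6 and 15.8% in 9. Chromosome 2 held the most far regions, 95. Far regions made up 3.10% of rule regions on gene-dense chromosome 19 and 30.9% on chromosome 13.

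**Figure D4:**
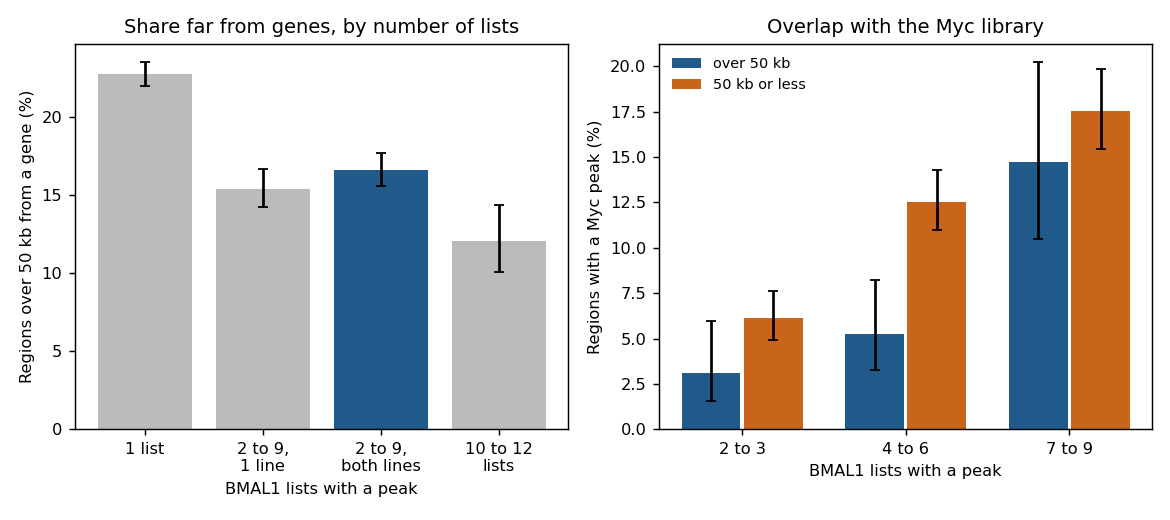
Left, share of merged BMAL1 regions over 50 kb from a gene (y axis, percent) by number of lists (x axis), with far regions in blue. Right, share of far (blue) and near (orange) regions overlapped by a Myc peak by number of lists. Bars carry Wilson 95% intervals. The far share was 22.8% in 1 list and 12.1% in 10 to 12. In 2 to 9 lists it was 15.4% with 1 line and 16.6% with both.

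lncRNAs crossed 273 of the far regions (34.6%), beside 29.8% of other BMAL1 regions over 50 kb from a gene. Pseudogenes crossed 17, and 108 (13.7%) had no entry of any kind within 50 kb, beside 22.3% of the others. Hosts with the most regions were PVT1, a lncRNA downstream of MYC, with 8, LOC101929268 with 6 and ZMIZ1-AS1 with 4. Another far region lay within 100 kb of 305 (38.7%), in 119 groups of 2 or more, and 18 groups held 4 or more. Of the 3964 near regions, 53.6% had another near region within 100 kb. The sets differ in number and in distance from genes, and no expected share was computed, so clustering was not tested. The largest group had 8 far regions in 102 kb between MYC and GSDMC. The 3 groups of 6 lay between LOC124907776 and SLC1A4, in 126 kb, between CRYBA4 and MN1, in 89.7 kb, and between UBE2V2 and CLXN, in 83.0 kb. A group of 4 lay in 16.6 kb between SMNDC1 and DUSP5, a phosphatase of ERK, where single regions were called in 4 to 9 lists.

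NPAS2, the partner of BMAL1, had 3 far regions in the gap between it and PDCL3, and the one 84.6 kb from it was called at 5 U2OS times. That region, chr2:100733356-100734113, carries the LOC105375310 window shown above. Its peaks stood at percentile 79.3 at 0 h, 77.9 at 4 h, 78.8 at 12 h, 73.7 at 16 h and 95 at 20 h in U2OS, with none at 8 h. In U2OS-CHR they stood at 29.3, 26.3, 73.8 and 59.6 at 0, 4, 16 and 20 h, with none at 8 or 12 h. This region was thus called at more U2OS than U2OS-CHR times, as 117 of the 789 were (14.8%, beside 13.4% of all regions with the same rule on calls). The lists differ in length, so no change in binding is read from these ranks. The other regions had 4 and 3 lists. RORA, a nuclear receptor that activates BMAL1, had 1 region, 327 kb away, with 4 lists, which lay closer to VPS13C, at 296 kb.

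Of the 10 regions with 9 lists and the highest mean percentile, 9 are described, and they were spread over 6 chromosomes. The one between JUN, the AP-1 subunit, and FGGY (chr1:58883241-58883834) led, 99.2 kb from JUN and across the lncRNAs JUN-DT and LINC02777. Its U2OS peaks stood at percentile 79.1, 80.8 and 77.4 at 4, 16 and 20 h, and its U2OS-CHR peaks at 90.4, 94.8, 93.2, 94.8, 96.1 and 96.7 from 0 to 20 h. All 6 U2OS-CHR percentiles were above the 3 U2OS ones, in lists of other lengths. The region between CADM1, a cell adhesion protein, and BUD13 (chr11:115757111-115757590) was called at 0, 4 and 20 h in U2OS, at 51.8, 76.8 and 80.8. Its 6 U2OS-CHR peaks stood between 87.8 and 95.7. The region between VEGFA, the angiogenic growth factor, and MRPL14 (chr6:44041524-44042199) crosses the lncRNA SCIRT, with U2OS peaks at 88.1, 69.1 and 78.3 at 4, 16 and 20 h. Its U2OS-CHR peaks stood between 79.5 and 92.7. In the region between CCDC112 and FEM1C, a ubiquitin ligase adaptor (chr5:115348759-115349786), the 6 U2OS-CHR peaks stood between 93.9 and 97.3 and the 3 U2OS peaks between 64.1 and 83.0. Across the 9, U2OS had 3 or 4 times and U2OS-CHR 5 or 6. Of the other 5, those nearest EXT1, which builds heparan sulfate, PIK3R1 and CXCL12, a chemokine, lay 124, 132 and 189 kb away. Another lay 264 kb from ARHGEF28 and 420 kb from ENC1. The last lay 60.9 kb from DRD1 and 647 kb from MSX2, a homeobox factor of bone.

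**Figure D5:**
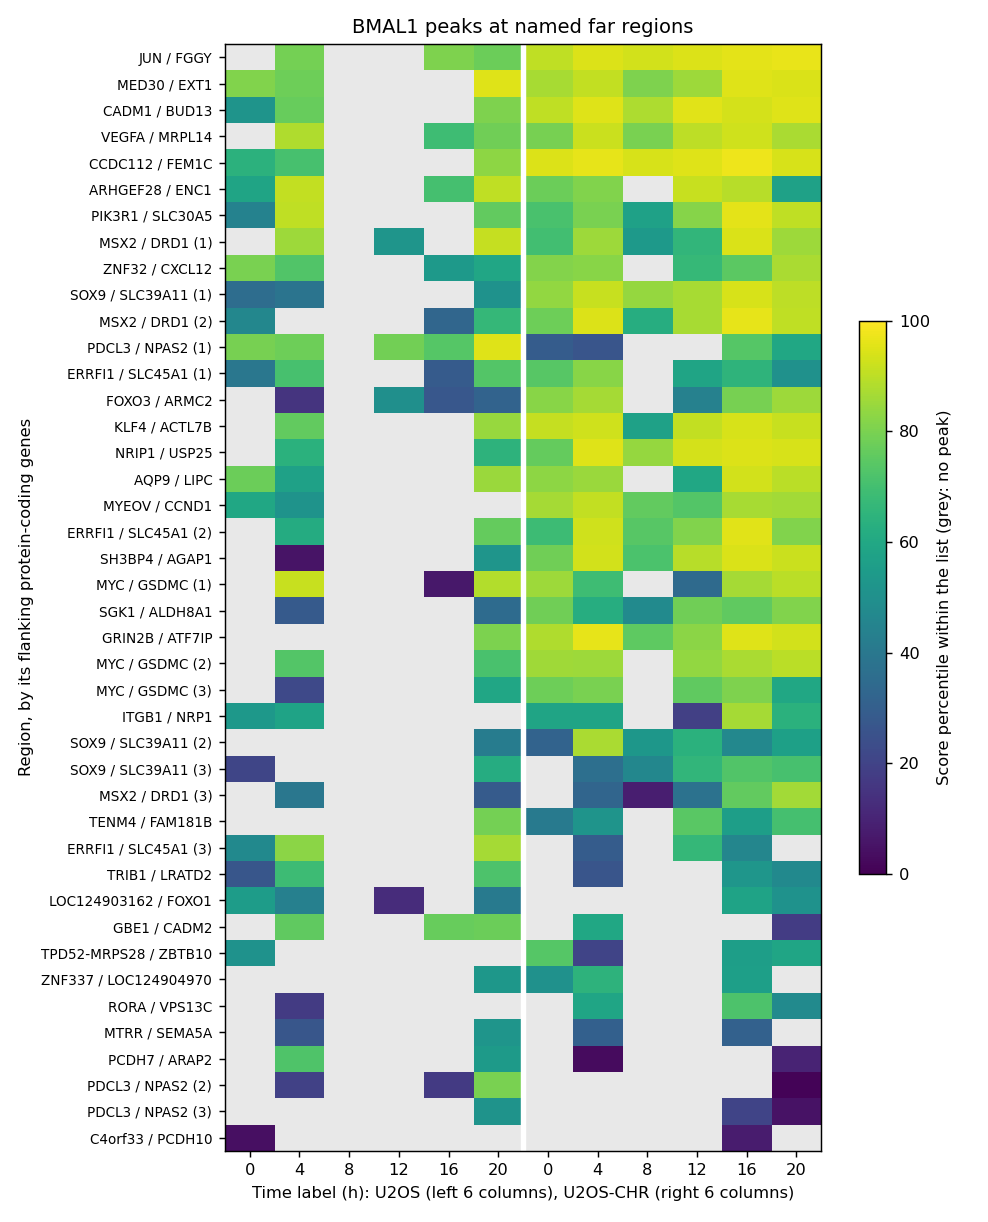
Each row is a named far region, labelled by the protein-coding genes on its 2 sides, and each column a BMAL1 library by line and labelled time (x axis, hours). Colour gives the percentile of the peak's score within its list and grey marks no peak; U2OS-CHR calls outnumbered U2OS calls in most rows, and U2OS at 8 h was grey in all.

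The 5 farthest regions had 2 to 6 lists. The farthest of all lay 2289 kb from the nearest gene, between PCDH7, a protocadherin, and ARAP2 (chr4:33715955-33716532), called at 4 and 20 h in both lines. Its peaks stood at percentile 72.3 and 54.4 in U2OS and at 3.12 and 9.92 in U2OS-CHR. Those between ZNF337 and LOC124904970, GBE1 and CADM2, TENM4 and FAM181B, and C4orf33 and PCDH10 lay 1375 to 1488 kb away, with 4, 5, 6 and 2 lists.

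Genes beside far regions were counted for 4 lists, chosen with earlier results of these data known. A gene counted when it was the nearest on either side of a far region, so the gene on the other side can lie closer. Of 20046 protein-coding genes 960 (4.79%) flanked a far region, and of the 4753 genes beside a gap of over 100 kb, where a far region can lie, the same 960 made 20.2%. Core clock genes flanked a far region in 2 of 20 cases (NPAS2 and RORA), glucocorticoid-induced genes in 5 of 21, skeletal genes in 5 of 18, and growth and cell-cycle genes in 8 of 18. Of those beside such a gap the counts were 2 of 8, 5 of 8, 5 of 12 and 8 of 10. A longer gap has more room for far regions, and the background was not matched for gap length. No test was made, so these counts do not show enrichment.

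Among glucocorticoid-induced genes, ERRFI1, an inhibitor of the EGF receptor, had 3 far regions at 64.7 to 171 kb, with 6 to 9 lists. All but the nearest lay closer to SLC45A1, at 135 and 120 kb. SGK1, a kinase of salt and stress responses, had 1 at 219 kb that was called at 2 U2OS and 6 U2OS-CHR times. Its U2OS peaks stood at percentile 28.2 and 34.9, and its U2OS-CHR peaks between 47.9 and 81.2. FOXO3, a stress-response factor, had 1 with 9 lists at 97.4 kb, FOXO1 had 1 at 147 kb, and CEBPB, an acute-phase factor, had 3. The FOXO3 region lay closer to ARMC2, at 65.7 kb. Skeletal genes had 18 far regions. SOX9, the master factor of cartilage, had 6 at 236 to 931 kb, with 2 to 9 lists. The one called in 9 lists (chr17:72388999-72389610) lay 263 kb from SOX9 and 256 kb from SLC39A11. It stood at percentile 35.8 to 50.9 in U2OS and 84.0 to 93.9 in U2OS-CHR. MSX2 had 6 at 219 to 647 kb. RUNX2, which drives bone formation, had 2, and the secreted ligands BMP2 and BMP4 had 3 and 1.

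Growth and cell-cycle genes had 27 far regions. MYC had 11 at 66.5 to 583 kb and KLF4, a zinc finger factor, had 8 at 222 to 1145 kb. The region 204 kb from CCND1, which encodes cyclin D1 (chr11:69436788-69437485), lay closer to MYEOV, at 140 kb. It was called at 0 and 4 h in U2OS, at 59.5 and 51.5, and at all 6 times in U2OS-CHR, between 73.4 and 90.9. KLF6, KLF10, MYCN, ID2 and JUN had 2, 1, 1, 1 and 2 regions. Over all 789 far regions there were 2386 U2OS-CHR calls and 1484 U2OS calls. U2OS-CHR calls were the more numerous at 16 of the 20 list genes with a far region, among them MYC, 41 to 16, and SOX9, 23 to 10. The share over all 960 flanking genes was not computed. By region, U2OS-CHR had more times in 59.1% of far regions and 61.1% of all regions with the same rule. The count of 16 is therefore no result about these genes. At the other 4 genes U2OS had more: NPAS2 (9 to 7), FOXO1 (4 to 2), RUNX2 (4 to 3) and ID2 (4 to 3).

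Myc peaks overlapped 55 far regions (6.97%, 5.39 to 8.96%), a share near the 6.32% of all merged regions. It moved with the processing: 10.8% without 4 h, 11.5% without 20 h, 19.5% for BMAL1 scores of 100 or more and 3.70% with distance taken to genes of every type. Each of these settings also changes which regions count as far. The near share was not computed under them, so they do not show whether the gap to near regions moved. Near regions had a Myc peak in 11.9% (11.0 to 13.0%) of cases, with 18.4% at gene ends, 8.75% inside genes and 9.86% (8.20 to 11.8%) at 1 to 50 kb. Far regions in 2 to 3, 4 to 6 and 7 to 9 lists had one in 3.08, 5.23 and 14.7%, and near regions in 6.13, 12.5 and 17.5%. The share rose with the number of BMAL1 lists in both sets. The far share was below the near one in each range, with intervals apart at 4 to 6 lists (3.29 to 8.22% and 11.0 to 14.3%) and overlapping at 2 to 3 and at 7 to 9. Against near regions at 1 to 50 kb, with 4.03, 12.0 and 13.6%, it was lower in the first 2 ranges and higher in the last. Among other regions over 50 kb away it was 0.740% in 1 list and 35.2% in 10 to 12. With 1 Myc library there was no test, and the intervals cover counting error only. At a Myc score of 100 or more the share was 1.01% of far regions (8) and 1.14% of near regions, so the gap between them was not seen there.

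Of the 10 far regions with the highest Myc scores, 9 are described, and they had 4 to 8 BMAL1 lists. The highest, between TPD52-MRPS28 and ZBTB10, was at percentile 98.4 of the Myc list and had 1 U2OS time and 4 U2OS-CHR times. The one between AQP9 and LIPC, a hepatic lipase (chr15:58331792-58332856), had a Myc peak at percentile 98.3 of its list and BMAL1 peaks at 3 U2OS and 5 U2OS-CHR times. The region between GRIN2B and ATF7IP (chr12:14257432-14258606) had 1 U2OS time and 6 U2OS-CHR times, with a Myc percentile of 94.1. The region between MTRR and SEMA5A, 556 kb away, carries the MIR4458HG window shown above and had 2 times in each line. Far regions with a Myc peak had a median of 7 BMAL1 lists and those without had 5.

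A microRNA hairpin lay within 2 kb of 2 far regions and inside none. MIR148A, 1098 bp from a region with 3 U2OS and 5 U2OS-CHR times, gives the mature sequence below, with its seed (bases 2 to 8) in capitals, shown because the region lies 201 kb from the nearest protein-coding gene, NFE2L3.
hsa-miR-148a-3p: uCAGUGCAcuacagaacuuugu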

How the data were processed

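The data were 13 deposited peak lists, 1 per ChIP library, 12 for BMAL1 and 1 for Myc. Tools listed by the submitters' processing notes are HOMER 4.10.3, MACS 1.4.2 and bedtools, with build hg38 and no account of their roles. The aligner is not given in the sources used here, nor are read depth and the control for calling. The 3 input libraries were not analysed here. The score of each peak is the authors' deposited score. Its definition is not stated, its lowest value was 50, and it was used only as a percentile within its list.

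Distances use 20046 protein-coding genes of RefSeq GRCh38.p14, the assembly of hg38. Lists were compared by exact sign-flip tests over 6 times, paired by the time labels, and exact permutation of time labels, with Benjamini-Hochberg adjustment over 6 tests (Python 3.11.15, pandas 2.3.3, SciPy 1.17.1). A pseudocount of 0.5 was added before log2 ratios of region counts. Intervals are Wilson 95%. The code was tested on a random pick of near regions with planted differences, and on simulated calls for the matched-time test.

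The members and gene lists were chosen with earlier results of these data known. Named regions are the 10 with the most lists, the 5 farthest, up to 10 by Myc score, up to 6 per gene list, and 3 on each side of 50 kb; some are given in the figure alone and 1 is not reported here. A motif count in windows at peak centres had been planned, but no genome sequence was used here, so lncRNA promoter windows replaced it. The sequences CACGTT and ACANNNTGT, the sequence TGAGTCA, 3 of the window sets and the background of genes beside a gap were added after seeing the data. One symbol of the glucocorticoid list (GILZ, an alias) was not matched. Alternatives varied distance, gene types, score, list length, overlap, pairing, the near set and each time left out.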

Additional observations from a re-analysis of the deposited data

Results flagged for a closer look

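In U2OS at 8 h the median width of far peaks was 2846.5 bp, far from the other 5 U2OS times, which lay between 207 and 395 bp. The gap to the nearest of them was 0.929 of the whole range, above Dixon's value of 0.625 for 6 samples. The 8 h median rests on 2 far peaks in a list of 337. It was the 1 set that passed of 10 examined, and chance gives about 1 in 20.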

How the results depend on the processing

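Of 121 values under alternatives, 82 were the same, 26 reversed and 13 moved. For the 6 tests, the same means that direction and side of the threshold were kept. For the Myc share it means a value inside the main interval, and for the number of far regions a value close to the main one. Limiting chromosomes to 1 to 22 and X left every value unchanged, so the agreement under that setting carries no weight. The lowest adjusted p of any exact permutation test was 0.1875. The number of far regions was 1197 beyond 20 kb, 484 beyond 100 kb, 108 counting genes of every type and 210 at a score of 100 or more. The Myc share was 1.01% with Myc scores of 100 or more, 3.70% with all gene types, 19.5% with BMAL1 scores of 100 or more, 9.24% with equal list sizes and 7.54 to 11.5% with each time left out. The line difference was −0.051 against near regions at 1 to 50 kb and −0.0060 beyond 100 kb. The U2OS score difference was −0.62 beyond 100 kb, −0.58 with all gene types, −4.70 at a score of 100, −1.12 with equal list sizes, and −7.09 to −1.84 with each time left out. The U2OS-CHR score difference was 5.48 with equal list sizes. The U2OS width difference was −0.015 with all gene types and −0.046 at a score of 100. The U2OS-CHR width difference was −0.027, −6.61e-05 and −0.0020 with all gene types, a score of 100 and equal list sizes, and −0.011 to 0.013 with each time left out. The matched-time difference in phi was −0.0026 at 50% overlap and −0.029 to 0.0032 with each time left out. Leaving out a time also changes the rule, since 2 to 9 is then counted over 10 lists; other causes were not tested. Without the replicate block, that is not paired by time, the exact permutation p was 0.883 for the line difference, 0.807 and 0.742 for score in U2OS and U2OS-CHR, and 0.656 and 0.918 for width. The differences themselves, such as 0.60 points of U2OS score and −0.81 of U2OS-CHR score, stay as they are under this change, and no call changed. Unknown depth limits all shares of called regions.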
